A study of Mus musculus with 3 samples.

Results

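The genes described here are 44 mouse orthologues of genes in which human variants cause hereditary hearing loss, chosen as a named list from the 32285 genes of the deposited tables. All 44 were found by symbol. Single-cell RNA sequencing counted their transcripts in pooled, dissociated otic vesicles of E10.5 mouse embryos, in 1 library of Sox9Y440X/+ heterozygotes (group CD in the labels) and 2 libraries of wild-type embryos (WT). Y440X is a premature stop codon in Sox9, a transcription factor of the early ear, and the other Sox9 copy of the CD embryos is wild type. The labels do not give how many vesicles or embryos entered a pool, nor whether the WT pools came from separate litters. CD and WT pools may differ for reasons other than genotype, which this design cannot tell apart, and with 1 CD library against 2 WT libraries the smallest p a permutation could give is 0.333. Where 3 values are listed, they stand for CD replicate 1, WT replicate 1 and WT replicate 2, in this order.

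The otic vesicle, or otocyst, is a closed epithelial sac from which the cochlea, the vestibular organs, the endolymphatic duct and the neurons of the inner ear ganglia all derive. At this stage it holds no differentiated hair cells. Most genes of hereditary deafness are known for what they do later, in hair cells (the tip link that opens the transduction channel, the actin core and motors of the stereocilia, the ribbon synapse), in the supporting cells and lateral wall (gap junctions, tight junctions) or in the extracellular matrix. The question asked of the counts is which of them already had transcripts in the otocyst, and in which of its cells.

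Cells that had 1000 or more detected genes and no more than 10% mitochondrial counts were sorted by gates on raw counts of unique molecular identifiers (UMIs, each standing for a captured transcript). Otic epithelial cells needed Epcam together with Fbxo2, Hmx2, Hmx3 and Pax2, mesenchyme Prrx1 and Twist1, neurons Neurod1 and Stmn2, and crest Sox10, the last 3 without Epcam. No gate gene is a member of the list. Kept cells numbered 8548, 6564 and 11018, of which 2778, 2537 and 4083 were otic, 1718, 1031 and 2222 mesenchyme, 737, 551 and 814 neurons and 133, 208 and 124 crest. The libraries shared between 28 and 55 cell barcodes in a pair. Levels are in CPM, the UMIs of a gene scaled to 1000000 UMIs over all cells of a class in a library, and since a kit that reads the 3' end was used, levels are compared between cells and not between genes. Differences are log2 fold changes from edgeR, given ± SE.

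The marker lists include the genes of the gates, so a high sum of a class for its own list follows in part from its gate. The 12 otic epithelial markers summed to 1653, 2102 and 2536 CPM in the otic class, the 8 mesenchyme markers to 2336, 2047 and 2091 CPM in mesenchyme, the 8 neuronal markers to 6974, 6495 and 6392 CPM in neurons and the 6 markers of crest and glia to 1118, 1109.6 and 1005 CPM in crest. The neuron class also held markers of other cells: the 6 erythroid ones summed to 20022, 12873 and 30966 CPM, the otic epithelial ones to 383, 368 and 371 CPM, the 5 endothelial ones to 175, 298 and 261 CPM and the 5 neural tube ones to 89.1, 116 and 17.8 CPM. Their part in the neuronal levels of members was not tested beyond leaving out cells with endothelial, blood, macrophage or neural tube markers. The otic class held erythroid markers at 7399, 4108 and 7094 CPM, neuronal ones at 366, 281 and 372 CPM, those of crest and glia at 179, 276 and 279.6 CPM and mesenchymal ones at 158, 100.03 and 208 CPM. There the 5 surface ectoderm markers summed to 62.7, 51.4 and 44.9 CPM and the 5 endothelial ones to 13.8, 11.4 and 18.0 CPM. Sox9 itself stood at 688, 409 and 338 CPM in otic cells, a count that takes both alleles together and does not check the genotype.

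Of the 44 genes, 25 reached 5 CPM in all 3 libraries in at least 1 of the 4 classes and are called expressed here. Another 12 stayed under 1 CPM in every library of every class and are called near zero, and 7 lay between. Otic cells expressed 23 of the 44, neurons 16, mesenchyme 12 and crest 9. Of all 32245 gene symbols in the tables, 30.9% reached the same level in otic cells, 29.7% in neurons, 28.8% in mesenchyme and 28.1% in crest. Of the 25 expressed genes, 9 were expressed in a single class, 5 in 2 classes, 3 in 3 classes and 8 in all 4. For these counts over several classes, the 25 and the 12 near zero included, no share of all genes is given here. They describe the list and are not set against a background. The general cytoskeletal genes were all expressed (4 of 4), and none of the synapse and channel genes was (0 of 3). Among the Usher scaffold proteins and motors 5 of 7 were expressed, among the matrix proteins, enzymes and others 5 of 7, among the regulators 3 of 5, among the bundle actin and coat proteins 3 of 6, among tip link and transduction proteins 3 of 7, and among junction proteins 2 of 5.

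**Figure D1:**
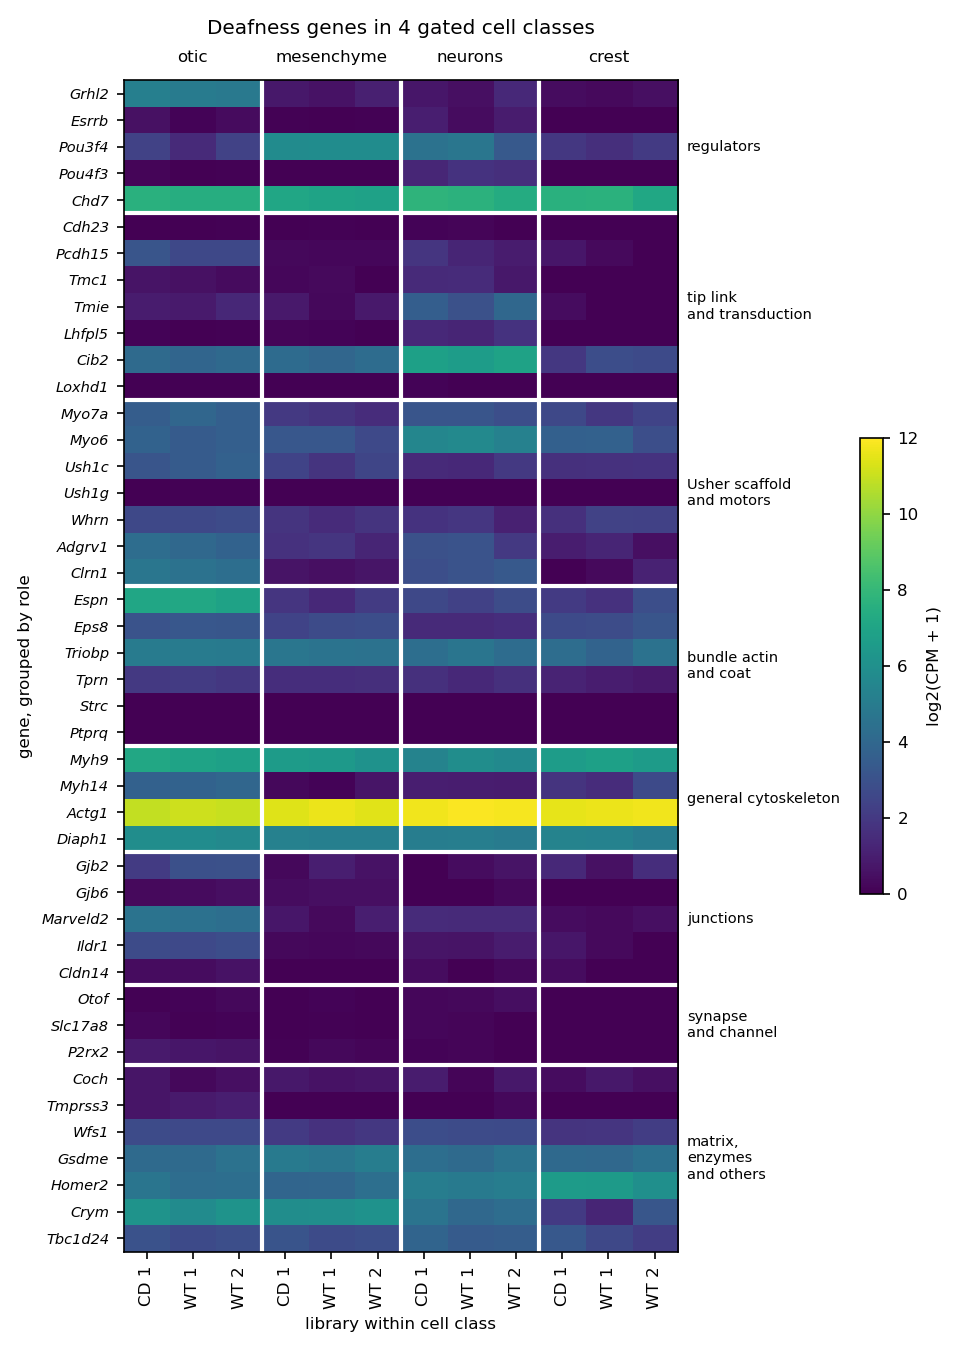
Level of each of the 44 genes (rows, grouped by role) in each library of the 4 gated classes (columns), coloured on a scale of log2(CPM + 1). The rows for Otof, Slc17a8, Strc, Ptprq, Loxhd1 and Cdh23 are dark in every column, and those for Grhl2, Espn, Clrn1 and Marveld2 are brightest in the otic columns.

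Promoter sequence was available for 33 of the 44 genes, as 45 transcription starts in the RefSeq promoter table (build GRCm38.p6). The 250 bases upstream of the start are printed for genes that stand for the patterns described in the following paragraphs. Of the 4 classes, Clrn1 and Ildr1 were highest in otic cells, Pou3f4 in mesenchyme and Cib2 in neurons. Clrn1, Pou3f4 and Cib2 were also expressed in other classes. Gjb2 was higher in Sox2-high otic cells, a call that some alternative analyses lost, and Coch was near zero. The sequences read 5' to 3' on the strand of the gene, with each CpG dinucleotide in capitals.
Clrn1 (chr3:58885213-58885462, minus strand): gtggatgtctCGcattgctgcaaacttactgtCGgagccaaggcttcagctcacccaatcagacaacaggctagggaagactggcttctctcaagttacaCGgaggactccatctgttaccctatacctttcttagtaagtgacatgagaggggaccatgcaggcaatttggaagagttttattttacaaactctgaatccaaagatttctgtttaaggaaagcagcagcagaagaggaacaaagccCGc
Ildr1 (chr16:36693728-36693977, plus strand): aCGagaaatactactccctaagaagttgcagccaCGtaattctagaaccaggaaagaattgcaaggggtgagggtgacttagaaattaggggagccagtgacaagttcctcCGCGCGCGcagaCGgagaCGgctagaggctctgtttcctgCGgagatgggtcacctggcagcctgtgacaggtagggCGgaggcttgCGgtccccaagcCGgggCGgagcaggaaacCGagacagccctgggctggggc
Gjb2 (chr14:57104703-57104952, minus strand): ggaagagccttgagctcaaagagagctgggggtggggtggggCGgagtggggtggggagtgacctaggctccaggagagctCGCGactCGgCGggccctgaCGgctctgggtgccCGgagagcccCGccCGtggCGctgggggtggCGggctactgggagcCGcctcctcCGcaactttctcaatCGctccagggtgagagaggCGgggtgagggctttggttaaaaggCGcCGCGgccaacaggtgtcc
Pou3f4 (chrX:110814129-110814378, plus strand): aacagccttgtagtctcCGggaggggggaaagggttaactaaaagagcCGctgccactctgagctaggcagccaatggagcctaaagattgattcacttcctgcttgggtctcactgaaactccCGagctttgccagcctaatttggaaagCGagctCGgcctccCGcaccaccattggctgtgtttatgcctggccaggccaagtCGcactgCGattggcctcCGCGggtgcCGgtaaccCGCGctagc
Cib2 (chr9:54560191-54560440, minus strand): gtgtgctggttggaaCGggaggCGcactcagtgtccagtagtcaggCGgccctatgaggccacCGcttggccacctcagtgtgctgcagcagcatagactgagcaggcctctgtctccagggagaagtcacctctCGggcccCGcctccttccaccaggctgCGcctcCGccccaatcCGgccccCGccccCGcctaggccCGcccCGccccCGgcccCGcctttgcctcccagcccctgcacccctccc
Coch (chr12:51593091-51593340, plus strand): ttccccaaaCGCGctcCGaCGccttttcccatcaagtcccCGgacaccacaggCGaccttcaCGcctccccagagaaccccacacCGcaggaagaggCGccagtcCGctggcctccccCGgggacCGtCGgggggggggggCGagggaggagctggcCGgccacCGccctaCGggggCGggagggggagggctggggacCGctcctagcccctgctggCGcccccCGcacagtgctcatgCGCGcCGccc

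These 6 windows held 4, 14, 18, 13, 15 and 24 CpG dinucleotides. Promoters of the expressed genes (27 starts of 20 genes) had a median of 13 CpG, those of the low genes (7 starts of 6 genes) 9 and those of the near-zero genes (11 starts of 7 genes) 5, beside a median of 6 and quartiles of 2 and 16 over all 32851 promoters of the table. Coch, with 24 CpG, was the richest among the near-zero genes, whose other promoters had between 3 and 6. The letters AACCNGTT, a motif of Grainyhead-like factors searched on both strands, occurred in 1 of the 45 member promoters (Gjb6), against 1.79% of all promoters. The letters ACAANGG, a SOX motif searched in the same way, occurred in 2 (1 start each of Myo7a and Espn), against 11.6% of all. A match describes the letters of the window and does not show a bound site.

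Espn encodes espin, which bundles the actin filaments of stereocilia. Its level was 135, 145 and 121 CPM in otic cells, 2.61, 1.61 and 3.29 CPM in mesenchyme, 5.14, 3.93 and 5.95 CPM in neurons and 3.16, 2.33 and 6.32 CPM in crest. Every otic value lay far above every value of the other classes. Otic cells exceeded mesenchyme in the paired comparison (log2 difference 5.53 ± 0.18, adjusted p = 2.21e-10 by edgeR). An Espn UMI was found in 80.5%, 86.9% and 75.1% of otic cells, and in 44.9%, 47.7% and 41.9% once each cell was thinned to 5000 UMIs. In mesenchyme, the shares were 5.01%, 3.30% and 4.82% unthinned and 1.27%, 1.15% and 2.09% thinned, with median depths of 18237.5, 19486 and 15513 UMIs against 22616.5, 25431 and 18752 in otic cells. Erythroid cells, which should lack the gene, had an Espn UMI in 4.35%, 5.96% and 8.70% of cells at median depths of 40784, 39810 and 37155 UMIs. The mesenchymal shares were thus of a similar size to the erythroid ones, although the erythroid cells were deeper. Whether free RNA gave either was not tested.

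Oc90, Cldn6 and Cdh1, epithelial genes that are not in the list, served as yardsticks for otic transcripts counted in other cells. Whether such counts come from free RNA was not tested. Oc90 in mesenchyme was at 2.03%, 1.55% and 3.67% of its otic level, Cldn6 at 1.61%, 0.908% and 3.21% and Cdh1 at 1.93%, 1.29% and 5.89%. Espn stood at 1.93%, 1.11% and 2.72% on the same measure, Grhl2 at 2.08%, 1.69% and 3.81%, Clrn1 at 2.12%, 1.93% and 3.25% and Marveld2 at 2.89%, 1.10% and 5.20%. All 4 members were within a few percent of their otic level, as the 3 yardstick genes were, although within a library they could fall outside the yardsticks: in CD Grhl2, Clrn1 and Marveld2 lay above all 3, in WT replicate 1 Grhl2 and Clrn1 did, and in WT replicate 2 Espn lay below them. Low mesenchymal counts of these members are not read as expression here, and their source was not tested. Myo7a, at 28.5%, 17.4% and 16.6%, and Adgrv1, at 12.1%, 16.6% and 10.9%, lay well above all 3 yardsticks in every library.

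Among the members tested between otic cells and mesenchyme, more were called higher than lower in otic cells. The fit tested 33 members among 15171 genes, and edgeR called 22 higher and 4 lower in otic cells, where 32.3% of all genes tested were higher and 30.3% lower. The median log2 difference of the 33 was 0.75, beside 0.01 over all genes tested. Counting every alternative analysis that was run apart from thinning, 20 of the 26 kept their call. By role, the tested junction proteins (3 of 3, from 5 members) and the tested Usher scaffold and motor genes (6 of 6, from 7 members) were all higher in otic cells. The call of Myo6 was not kept in every alternative. The 11 members left untested had too few counts in these sums. The filter on counts admits a gene that is high in a single class, so a member could enter the test on its otic counts alone. The counts of members called, the median and the counts by role, here and in the other class comparisons, therefore describe the tested members only. They do not show a trait of the list or of a role.

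The regulators divided by class. Grhl2, a transcription factor that maintains epithelia, was at 34.7, 30.7 and 27.5 CPM in otic cells and at 0.720, 0.521 and 1.05 CPM in mesenchyme, a log2 difference of 5.13 ± 0.21. Pou3f4, the X-linked POU factor of the mesenchyme around the ear, had the opposite pattern, with 54.0, 56.0 and 56.3 CPM in mesenchyme and 4.11, 1.73 and 4.16 CPM in otic cells (log2 difference otic over mesenchyme -4.22 ± 0.29). The otic value was 7.61%, 3.09% and 7.38% of the mesenchymal one, where the mesenchymal collagen gene Col3a1 stood at 4.33%, 2.81% and 8.85%. On the same measure Col1a1 stood at 4.90%, 3.68% and 11.2%, Pdgfra at 5.86%, 4.03% and 10.4% and Twist2 at 4.94%, 3.41% and 8.60%. The otic share of Pou3f4 exceeded those of all these mesenchymal genes in CD. In WT replicate 1 it exceeded that of Col3a1 alone, and in WT replicate 2 it lay below them all.

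Pou3f4 in the neuron class was uneven, at 21.97, 25.1 and 9.23 CPM. The WT replicate 2 value lay under those of the other libraries, and the summed neural tube markers of the neuron class followed the same order. Their part in this unevenness was not tested. With cells that carried endothelial, blood, macrophage or neural tube markers left out, Pou3f4 was still called lower in neurons than in mesenchyme by edgeR. Chd7, a chromatin remodeller, was expressed in all 4 classes, with 197, 179 and 175 CPM in otic cells, 135, 125 and 118 CPM in mesenchyme, 219, 210.4 and 164 CPM in neurons and 198, 201 and 139.9 CPM in crest. It was higher in otic cells than in mesenchyme (log2 0.38 ± 0.07) by edgeR. Pou4f3, a factor needed for hair cell survival, was detected chiefly in the neuron class, with 17, 22 and 23 UMIs there, 8, 1 and 4 in all otic cells and none in mesenchyme or crest. Esrrb, a nuclear receptor, stayed near zero with 0.464, 0.0812 and 0.281 CPM in otic cells.

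The transduction genes were divided between neurons and otic cells. Cib2 encodes a calcium- and integrin-binding protein of the transduction complex. Its level in neurons was 111, 97.5 and 119.7 CPM, against 16.7, 14.2 and 15.9 CPM in otic cells, 17.3, 14.4 and 18.1 CPM in mesenchyme and 2.84, 6.05 and 5.53 CPM in crest. No value of another class came near the lowest neuronal one. The log2 difference of otic cells from neurons was -2.96 ± 0.09. A Cib2 UMI was found in 59.7%, 56.8% and 56.3% of neurons and 35.7%, 32.4% and 42.2% after thinning. In mesenchyme the shares were 26.4%, 23.5% and 23.0%, or 8.99%, 7.97% and 9.47% after thinning, and in erythroid cells 3.11%, 2.13% and 2.42% unthinned. The mesenchymal level was 15.7%, 14.8% and 15.1% of the neuronal one, where the neuronal tubulin Tubb3 stood at 0.648%, 0.520% and 0.993%. The mesenchymal share of Cib2 thus lay above that of Tubb3 in every library.

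Tmie, a subunit of the transduction channel complex, was also highest in neurons, with 11.2, 6.80 and 15.3 CPM in neurons and at most 1.55 CPM in any other class and library (otic over neurons, log2 -3.49 ± 0.24). Pcdh15, which forms the lower part of the tip link, was by contrast highest in otic cells among the 4 classes. It was at 8.0, 5.13 and 5.14 CPM in otic cells, 2.65, 1.38 and 0.888 CPM in neurons and 0.180, 0.142 and 0.142 CPM in mesenchyme. The neuronal level was 33.2%, 26.9% and 17.3% of the otic one, where Cdh1, the highest yardstick in neurons, stood at 2.41%, 2.89% and 10.4%. The partner of Pcdh15 in the tip link, Cdh23, was near zero, with 2, 2 and 4 UMIs over all otic cells. The channel gene Tmc1 was counted 40, 33 and 24 times in the otic class and 20, 17 and 8 times in neurons. Lhfpl5, which couples the tip link to the channel, was counted 5, 2 and 5 times in the otic class and 19, 13 and 27 times in neurons. The otic class held more UMIs in total (71103168, 73924314 and 89020200, against 12060162, 9417411 and 11264224 in neurons). By level, Tmc1 and Lhfpl5 were both lower in otic cells than in neurons by edgeR. Of the 5 transduction genes tested between the classes, 4 were lower and 1 (Pcdh15) was higher in otic cells than in neurons by edgeR. The filter on counts could admit a gene on its neuronal counts alone, and Lhfpl5 had few otic UMIs. This split therefore describes the tested genes only and does not show a trait of the role. Among all members tested, 18 were higher and 12 lower in otic cells than in neurons, against 32.6% and 32.1% of all genes tested. Their median log2 difference was 0.56, beside 0.02 over all genes.

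**Figure D2:**
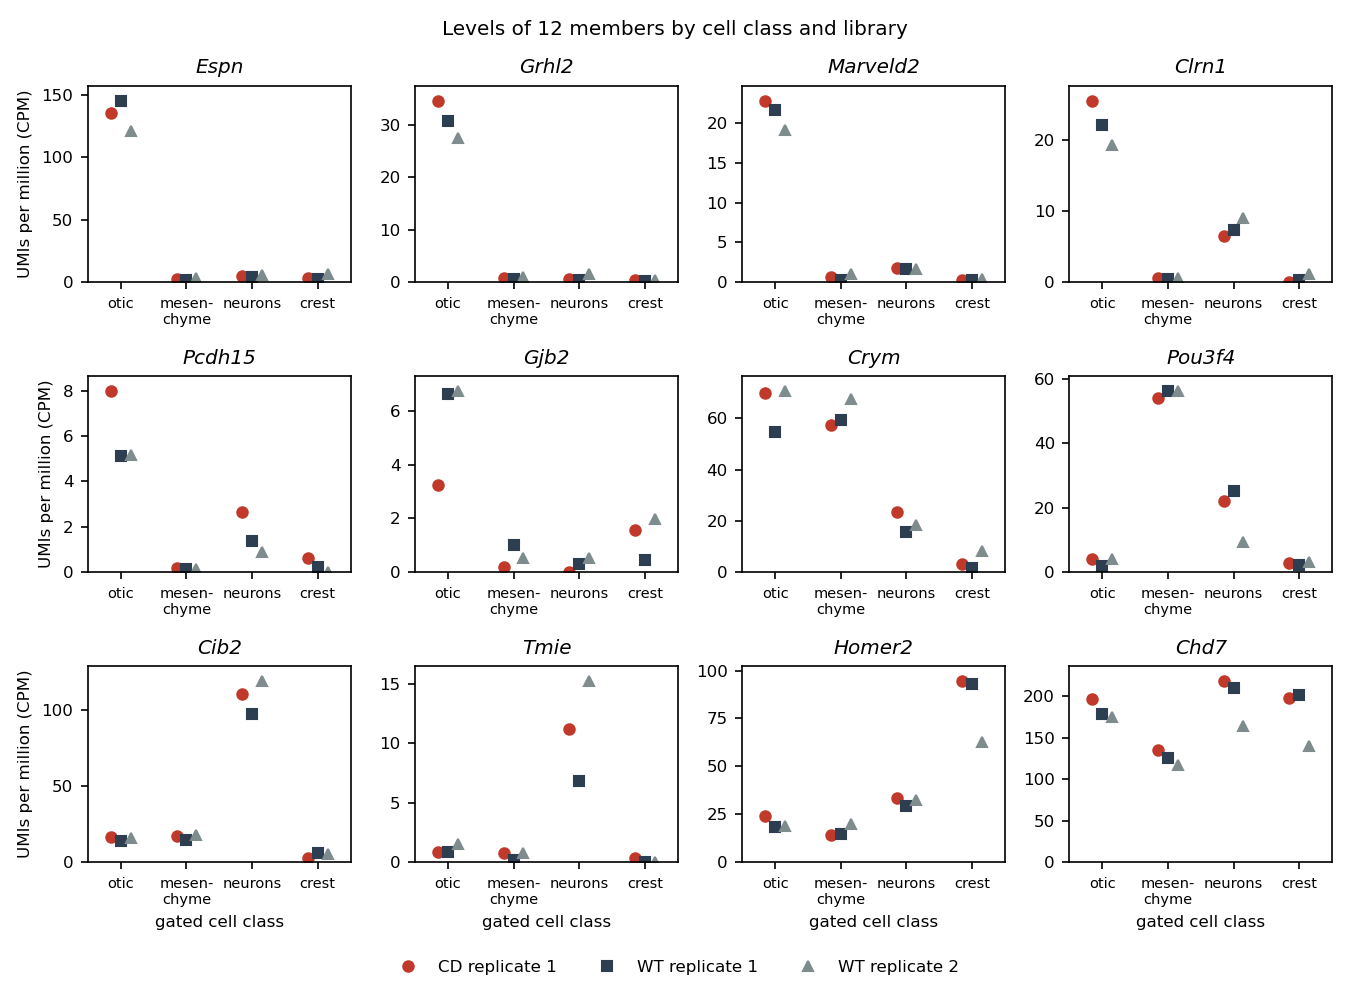
Levels in CPM of 12 members (vertical axes, linear) in the 4 gated classes (horizontal axes), with a point for each library. Espn, Grhl2, Marveld2 and Clrn1 are highest in otic cells, Pou3f4 in mesenchyme, Cib2 and Tmie in neurons and Homer2 in crest, in all 3 libraries, while Crym is similar in otic cells and mesenchyme.

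Clrn1 encodes clarin-1, a membrane protein of the hair bundle and synapse. It was expressed in otic cells, at 25.5, 22.1 and 19.2 CPM, and in neurons, at 6.47, 7.33 and 9.06 CPM, with at most 1.19 CPM in mesenchyme and crest. The neuronal level was 25.4%, 33.1% and 47.2% of the otic one. The 3 yardstick genes were lower in every library, Oc90 at 1.53%, 1.63% and 4.05%, Cldn6 at 2.05%, 1.24% and 3.80% and Cdh1 at 2.41%, 2.89% and 10.4% of their otic level in neurons. Otic cells were higher than neurons (log2 1.39 ± 0.17) and neurons higher than mesenchyme (log2 3.80 ± 0.26). Adgrv1, the large adhesion receptor of the ankle links, was at 18.6, 15.7 and 12.5 CPM in otic cells and 6.88, 7.43 and 2.93 CPM in neurons. In cells that passed none of the gates Adgrv1 was at 16.1, 20.6 and 6.70 CPM, where the summed neural tube markers were 136, 268 and 22.5 CPM and followed the same order of libraries. Their part in the result was not tested.

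Both unconventional myosins of the group were present in more than 1 class. Myo7a, the motor of the upper tip link, was at 10.6, 14.5 and 11.3 CPM in otic cells, 7.88, 7.96 and 6.30 CPM in neurons and 3.03, 2.51 and 1.87 CPM in mesenchyme. Myo6, a motor that moves towards the minus end of actin, was higher in neurons, with 44.5, 48.8 and 38.3 CPM, than in otic cells, with 12.5, 10.1 and 11.4 CPM (otic over neurons, log2 -2.09 ± 0.13). Endothelial cells, gated on Kdr, Cdh5 and Pecam1, held more of it, at 89.3, 94.7 and 81.0 CPM, and endothelial markers were present in the neuron class as given above. With cells that carried endothelial, blood, macrophage or neural tube markers left out, the call against otic cells was kept. Ush1c, the scaffold protein harmonin, was at 7.90, 9.82 and 12.2 CPM in otic cells and 4.29, 2.46 and 4.62 CPM in mesenchyme. Whrn, the scaffold whirlin, was low at 4.98, 5.05 and 5.64 CPM in otic cells, and Ush1g, the scaffold Sans, had 2, 3 and 3 UMIs in otic cells and none in the other 3 classes.

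Among the other bundle proteins, Triobp, which bundles the actin rootlets of stereocilia, was at 30.9, 30.8 and 29.8 CPM in otic cells, 24.9, 22.7 and 21.98 CPM in mesenchyme and 19.2, 24.5 and 18.1 CPM in neurons, and endothelial cells held 53.3, 60.1 and 58.7 CPM. Eps8, an actin capping and bundling protein, was at 7.52, 8.51 and 8.38 CPM in otic cells, 4.26, 5.73 and 6.13 CPM in mesenchyme and 1.66, 1.70 and 1.95 CPM in neurons, lower in neurons than in otic cells and than in mesenchyme by edgeR. Tprn, taperin of the stereocilium base, was low at 2.98, 3.22 and 2.89 CPM in otic cells. Strc (stereocilin) and Ptprq (a receptor phosphatase of the shaft links), which belong to the surface coat of mature bundles, had 2 UMIs each over all otic cells and none in the other 3 classes.

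The general cytoskeletal genes were found everywhere, with 1 exception. Myh14, a non-muscle myosin heavy chain of epithelial junctions, was at 12.3, 12.6 and 14.5 CPM in otic cells, 0.180, 0.0947 and 0.596 CPM in mesenchyme, 0.995, 0.956 and 0.888 CPM in neurons and 2.53, 1.86 and 5.53 CPM in crest (otic over mesenchyme, log2 5.24 ± 0.28). Its relative Myh9 was at 145, 124 and 113 CPM in otic cells and 40.2, 58.3 and 51.6 CPM in neurons, and endothelial cells held 219.9, 211 and 199 CPM. Actg1, cytoplasmic gamma-actin, was lower in otic cells, with 1907, 2170.3 and 2052 CPM, than in mesenchyme, with 2698, 3166 and 2847 CPM, and than in neurons, with 3430.3, 3839.9 and 3612 CPM. Actg1 is nearly identical to other actin genes in its coding sequence, and how reads shared between them were counted is not given in the sources used here. Diaph1, a formin that assembles actin filaments, was at 58.0, 56.8 and 48.5 CPM in otic cells and 37.3, 35.0 and 35.1 CPM in mesenchyme.

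The genes of tricellular junctions had their highest levels in otic cells. Marveld2 (tricellulin) was at 22.8, 21.6 and 19.1 CPM in otic cells, and its partner Ildr1 (angulin-2) at 5.78, 5.37 and 6.04 CPM. In mesenchyme Marveld2 was at 0.660, 0.237 and 0.993 CPM (log2 4.80 ± 0.22) and Ildr1 at 0.180, 0.142 and 0.199 CPM (log2 4.84 ± 0.25). In neurons Marveld2 stood at 7.99%, 7.86% and 8.84% of its otic level and Ildr1 at 10.04%, 9.89% and 14.7%. Ildr1 thus lay above the 3 yardsticks in every library, and Marveld2 in CD and WT replicate 1 but not in WT replicate 2, where Cdh1 was higher. Endothelial cells held Marveld2 as well, at 8.46, 5.33 and 8.24 CPM, and no UMI of Ildr1. The connexin gene Gjb2 was low in otic cells, at 3.23, 6.63 and 6.77 CPM, and was still higher there than in mesenchyme (log2 3.27 ± 0.34). Its neighbour Gjb6, another connexin gene, gave 17, 21 and 35 UMIs in the otic class beside 10, 9 and 14 in mesenchyme, and Cldn14, a claudin, 23, 24 and 44 beside 0, 0 and 1. The otic class held more UMIs in total (71103168, 73924314 and 89020200, against 33334950, 21119240 and 35254675 in mesenchyme). Gjb6 was therefore not higher in otic cells by level, and its highest value in the 4 classes, 0.426 CPM, was that of WT replicate 1 mesenchyme.

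The synapse and channel genes Otof (otoferlin), Slc17a8 (the vesicular glutamate transporter of hair cells) and P2rx2 (an ATP-gated channel) were all near zero. Otic cells held 3, 6 and 17 UMIs of Otof, 12, 4 and 6 of Slc17a8 and 60, 50 and 51 of P2rx2, and crest cells none of the 3. Coch, the matrix protein cochlin, was at most 0.912 CPM in any library of the 4 classes. Loxhd1, a stereociliary protein, had 3 UMIs over all otic cells, and Tmprss3, a serine protease, 43, 59 and 91. A count of 0 in the 71103168 UMIs of the CD otic cells would allow a level of up to 0.0422 CPM (3 counts, counting error only), so the levels of Strc, Ptprq, Loxhd1, Ush1g, Cdh23 and Otof were at or under what this depth can tell from none in at least 1 library.

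Crym, a thyroid hormone-binding protein, was a gene of both epithelium and mesenchyme. It was at 70.1, 54.7 and 70.8 CPM in otic cells, 57.5, 59.3 and 67.5 CPM in mesenchyme, 23.3, 15.5 and 18.4 CPM in neurons and 3.16, 1.40 and 8.30 CPM in crest. Otic cells and mesenchyme overlapped, and both exceeded neurons and crest (otic over neurons, log2 1.61 ± 0.15, otic over crest 3.97 ± 0.27). Homer2, a synaptic scaffold protein, had its highest levels in crest, at 94.8, 93.0 and 62.8 CPM, against 24.1, 18.4 and 19.0 CPM in otic cells, 33.2, 29.3 and 32.5 CPM in neurons and 14.2, 14.8 and 19.9 CPM in mesenchyme. A Homer2 UMI was found in 68.4%, 71.6% and 59.7% of crest cells and 38.9%, 36.6% and 22.2% after thinning, and in 2.16%, 7.65% and 3.97% of endothelial cells unthinned. Erythroid cells held Homer2 at 17.6, 27.4 and 23.5 CPM. Gsdme, a pore-forming gasdermin, was lower in otic cells, at 16.6, 16.8 and 21.7 CPM, than in mesenchyme, at 28.6, 25.1 and 33.0 CPM (log2 -0.82 ± 0.07). Wfs1, a protein of the endoplasmic reticulum, was at 5.72, 5.25 and 5.21 CPM in otic cells and 6.14, 5.73 and 5.5 CPM in neurons, and Tbc1d24, a vesicle trafficking protein, at 7.10, 5.51 and 6.32 CPM in otic cells and 13.7, 9.77 and 10.7 CPM in neurons.

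The 9 members expressed in crest were all expressed in otic cells too. By edgeR, 19 members were higher and 2 lower in otic cells than in crest, against 25.1% and 22.3% of all genes tested, the lower ones being Homer2 (log2 -2.18 ± 0.16) and Actg1 (-0.77 ± 0.04). Between crest and mesenchyme 3 members were higher (Homer2, Myh14 and Chd7) and 6 lower, against 17.1% and 18.7% of all genes. Without WT replicate 1 the count higher became 5, and with cells carrying other markers left out it also became 5. Neurons exceeded mesenchyme for 19 members and were lower for 6 (background 33% and 30.9%), and crest exceeded neurons for 4 and was lower for 17 (24.5% and 27.2%). The crest class was the smallest, and its floor of 3 counts corresponds to between 0.698 and 1.19 CPM, so that members under this level in crest could not be told from none.

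Among 84 further genes of hereditary deafness that are not in the list, 47 were expressed in otic cells, where 30.9% of all gene symbols were. In at least 1 class 53 were expressed, a count for which no share of all genes is given here. Of the 66 that could be tested, 34 were higher and 20 lower in otic cells than in mesenchyme by edgeR, beside the 32.3% and 30.3% of all genes given above. Those 84 genes were listed from knowledge of the field.

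Within the otic class, members were compared between regions gated on a few transcription factor and signalling genes, none of them members: neurogenic cells (Neurog1 and Neurod1), Otx cells (Otx1 and Otx2, marking ventral and posterior epithelium), dorsal cells (Dlx5 and Gbx2) and Sox2-high cells (Sox2 and Lfng, marking prosensory and neurogenic epithelium). The gates held 7.56%, 8.04% and 8.30% of otic cells (neurogenic), 15.1%, 20.6% and 17.0% (Otx), 44.6%, 44.5% and 31.3% (dorsal) and 31.3%, 35.0% and 22.1% (Sox2), and a cell could fall in more than 1. Each gate was set against all other otic cells of the same library, which leaves 2 residual degrees of freedom. Cells inside a gate were deeper than the rest, with medians of 28802, 33424 and 25334 UMIs in Otx cells against 21656, 23768.5 and 17694 outside. Depth thus moves with these differences, and with every cell thinned to 5000 UMIs before gating edgeR called 3 members higher and 1 lower in Otx cells, where the calls over all genes came to 2.11% and 2.39%. In all 4 gates the counts of members called moved by more than 1.5 times under thinning, and also with the library left out of the model, and the calls over all genes became fewer as well.

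Crym differed between otic regions in 3 of the 4 comparisons. In Otx cells it was at 142, 121 and 169.8 CPM, against 52.7, 30.2 and 41.8 CPM in other otic cells (log2 difference 1.81 ± 0.10, adjusted p = 3.16e-06 by edgeR). In dorsal cells it was at 31.0, 27.4 and 30.6 CPM, against 109.9, 82.0 and 94.3 CPM outside (log2 difference -1.71 ± 0.05, adjusted p = 4.18e-08 by edgeR), and in Sox2-high cells it was higher (log2 1.24 ± 0.09). Inside and outside values did not overlap in any of the 3. The 3 calls were kept in every alternative run, thinning included.

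Pcdh15 was higher in Otx cells and lower in dorsal cells, and was not called in Sox2-high cells (log2 0.03 ± 0.11). It was at 15.5, 9.82 and 9.96 CPM in Otx cells and 6.20, 3.39 and 3.73 CPM outside (log2 1.41 ± 0.09), and at 5.44, 2.65 and 3.33 CPM in dorsal cells and 10.6, 7.62 and 6.20 CPM outside (log2 -1.14 ± 0.12). Myo7a, which acts with Pcdh15 at the tip link, was higher in Otx cells too, at 16.8, 23.5 and 20.1 CPM against 9.15, 11.1 and 8.70 CPM (log2 1.06 ± 0.07). Clrn1 went the other way, with 12.4, 14.3 and 11.3 CPM in Otx cells and 28.6, 24.98 and 21.5 CPM outside (log2 -0.97 ± 0.08), and was higher in Sox2-high cells (log2 0.69 ± 0.05). In the Otx comparison edgeR called 10 members higher and 5 lower of 35 tested, against 14.4% and 13.1% of all genes. Without WT replicate 1 the count lower was 3 in place of 5, and of the 15 calls those of Chd7, Crym, Myo7a, Pcdh15, Triobp, Whrn, Cib2 and Clrn1 were kept in every alternative run other than thinning.

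Gjb2 was higher in Sox2-high cells. It stood at 5.72, 10.2 and 13.5 CPM inside the gate and 1.69, 4.01 and 4.21 CPM outside (log2 difference 1.58 ± 0.10, adjusted p = 3.42e-06 by edgeR), and was lower in Otx cells, with 1.81, 4.11 and 3.42 CPM against 3.58, 7.56 and 7.76 CPM (log2 -1.03 ± 0.11). The lowest value inside the Sox2 gate, that of CD, lay above the highest value outside. With the library left out of the model neither difference passed (edgeR adjusted p = 0.0771 for the Sox2 and 0.184 for the Otx gate), and thinning also ended the Sox2 call (edgeR adjusted p = 0.683). In the Sox2 comparison 8 members were higher and 4 lower, against 17.2% and 15.7% of all genes, and the calls of Chd7, Clrn1, Crym and Cib2 were kept in every alternative other than thinning. Without CD replicate 1, the count lower was 2 in place of 4.

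**Figure D3:**
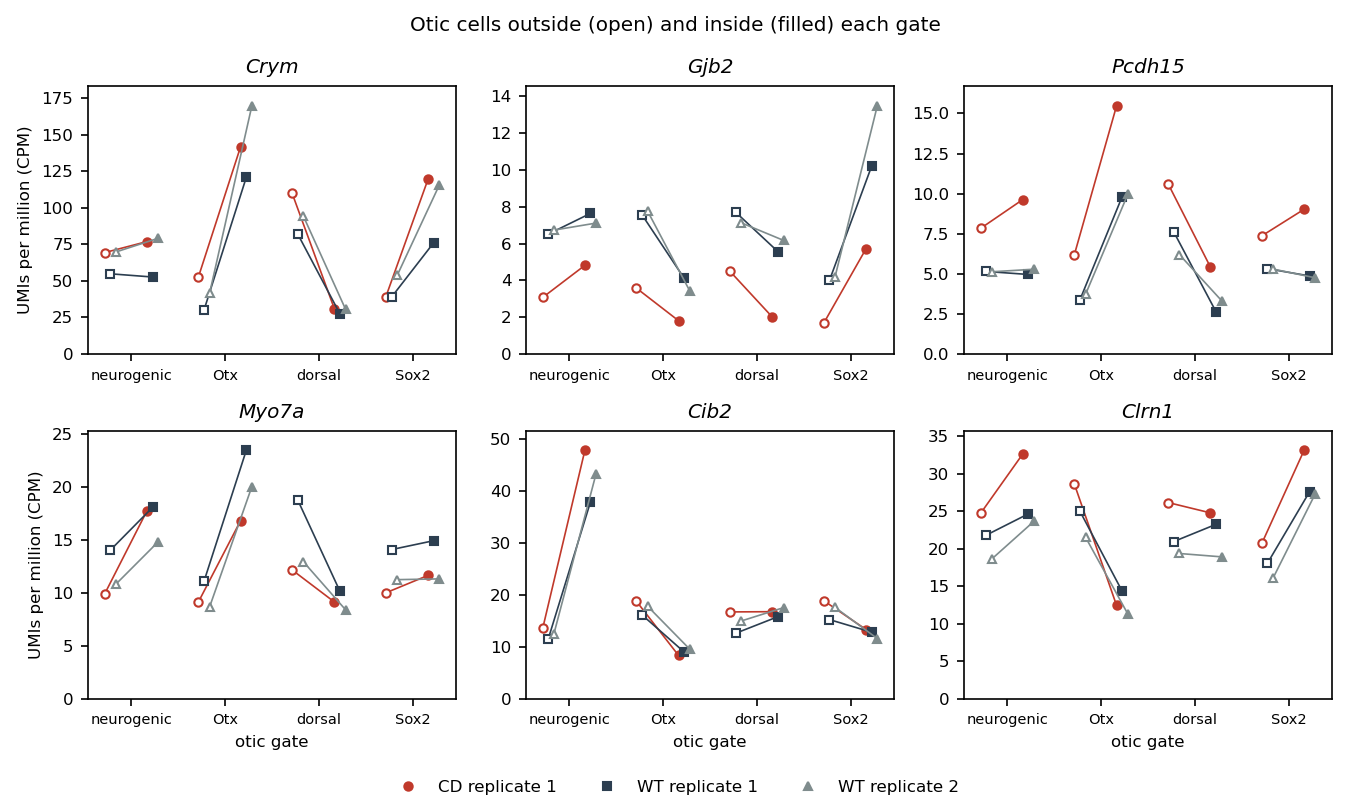
Levels in CPM (vertical axes, linear) of 6 members in otic cells outside (open symbols) and inside (filled symbols) each of 4 gates, with a line joining the values of a library. Crym and Pcdh15 rise into the Otx gate and fall into the dorsal gate in all 3 libraries, Gjb2 rises into the Sox2 gate, and Cib2 rises into the neurogenic gate.

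Neurogenic otic cells give rise to the neurons of the inner ear ganglia. Cib2 was at 47.9, 37.9 and 43.4 CPM inside the gate and 13.5, 11.5 and 12.5 CPM outside (log2 difference 1.80 ± 0.07, adjusted p = 7.32e-10 by edgeR), with no overlap between libraries. Tmie was at 3.16, 3.22 and 7.22 CPM against 0.621, 0.572 and 0.846 CPM (log2 2.72 ± 0.27), and Myo6 at 27.2, 18.4 and 22.4 CPM against 11.0, 9.13 and 10.1 CPM (log2 1.18 ± 0.09). The epithelial members Espn (log2 -0.60 ± 0.05) and Grhl2 (-0.51 ± 0.07) were lower. Homer2 (log2 0.04 ± 0.11) and Pou3f4 (-0.06 ± 0.28), which were higher in neurons than in otic cells, were not called here. In all, 9 members were higher and 5 lower, against 15.5% and 11.9% of all genes, and without WT replicate 1 the count lower was 3. The neurogenic gate uses Neurod1, which also gates the neuron class, so the 2 comparisons are not independent.

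Dorsal otic cells showed 8 members higher and 9 lower, against 16.6% and 16.7% of all genes. The calls kept in every alternative other than thinning were all lower: Crym, Pcdh15, Chd7 (log2 -0.34 ± 0.03) and Tmprss3. Tmprss3 was at 0.307, 0.459 and 0.550 CPM in dorsal cells and 0.908, 1.14 and 1.30 CPM outside (log2 -1.37 ± 0.24). Of the higher calls none was kept throughout, and their number was 4 without WT replicate 1 and 5 without WT replicate 2. The largest of them by fold was that of Tmc1, from 0.255, 0.244 and 0.142 CPM outside to 0.864, 0.648 and 0.489 CPM inside the dorsal gate.

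No member passed the threshold between CD and WT in any class. In otic cells edgeR tested 37 members and called 0, with 3 at an unadjusted p under 0.05 (Gjb2, Pcdh15 and Ush1c), and DESeq2 called 0, with 2 at an unadjusted p under 0.05. Of all 17161 genes tested there, 0.0175% were called higher and 0.0758% lower in CD, and 4.08% had an unadjusted p under 0.05. In mesenchyme (28 members tested), neurons (32) and crest (18) edgeR and DESeq2 each called 0 members, and 0 reached an unadjusted p under 0.05, as 1.19%, 3.96% and 2.03% of all genes did by edgeR. Among all genes edgeR called 0.0264% higher and 0% lower in mesenchyme, 0.164% and 0.42% in neurons, and 0.027% each way in crest. These tests rest on 1 residual degree of freedom, from the WT pair, and assume that the lone CD library varies as WT does.

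Gjb2 was the member nearest to the threshold. Its otic level was 3.23 CPM in the CD library, against 6.63 and 6.77 CPM in the WT ones, so the CD value lay below both and the WT values were close together (log2 difference -1.11 ± 0.24, adjusted p = 0.222 by edgeR). It rested on 230, 490 and 603 UMIs. The share of otic cells with a Gjb2 UMI was 5.54%, 13.5% and 10.4%, and 1.68%, 3.62% and 3.45% after thinning. In mesenchyme the unthinned shares were 0.349%, 1.65% and 0.810%. Over all alternatives the adjusted p ranged from 0.0227 to 0.432 and the log2 fold change from -1.09 to -1.39, and it passed the threshold only without the filter on low counts. The lower CD level held on both sides of the Sox2 gate (5.72 CPM in CD against 10.2 and 13.5 CPM inside, 1.69 CPM against 4.01 and 4.21 CPM outside).

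Among members expressed in otic cells, log2 fold changes lay mostly close to 0. The cut of 5 CPM applies to every library, CD included, so a member that is low in CD leaves this set, as Gjb2 did. The values that follow, in every class, are therefore bound to the CD levels they compare. Over all 37 members tested in otic cells the median log2 fold change was 0.08. Tested members not called expressed there, apart from Gjb2, are not summarised further. Of the 23 members expressed in otic cells, 21 differed by less than 0.5, 14 had positive values, and the median was 0.10. The range ran from -0.54 for Ush1c (SE 0.23) to 0.58 for Pcdh15 (SE 0.22, edgeR adjusted p = 0.961). In CD, Pcdh15 was at 8.0 CPM, against WT values of 5.13 and 5.14 CPM, and Ush1c at 7.90 CPM, against 9.82 and 12.2 CPM. For Espn the log2 fold change was -0.03 ± 0.16, for Grhl2 0.20 ± 0.15 and for Clrn1 0.25 ± 0.17, with CD inside the WT range for Espn and above both WT values for the other two. In mesenchyme the 12 expressed members ranged from -0.34 (Homer2) to 0.29 (Tbc1d24), in neurons the 16 from -0.46 (Myh9) to 0.44 (Crym), and in crest the 9 from -0.38 (Eps8) to 0.29 (Myo6).

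**Figure D4:**
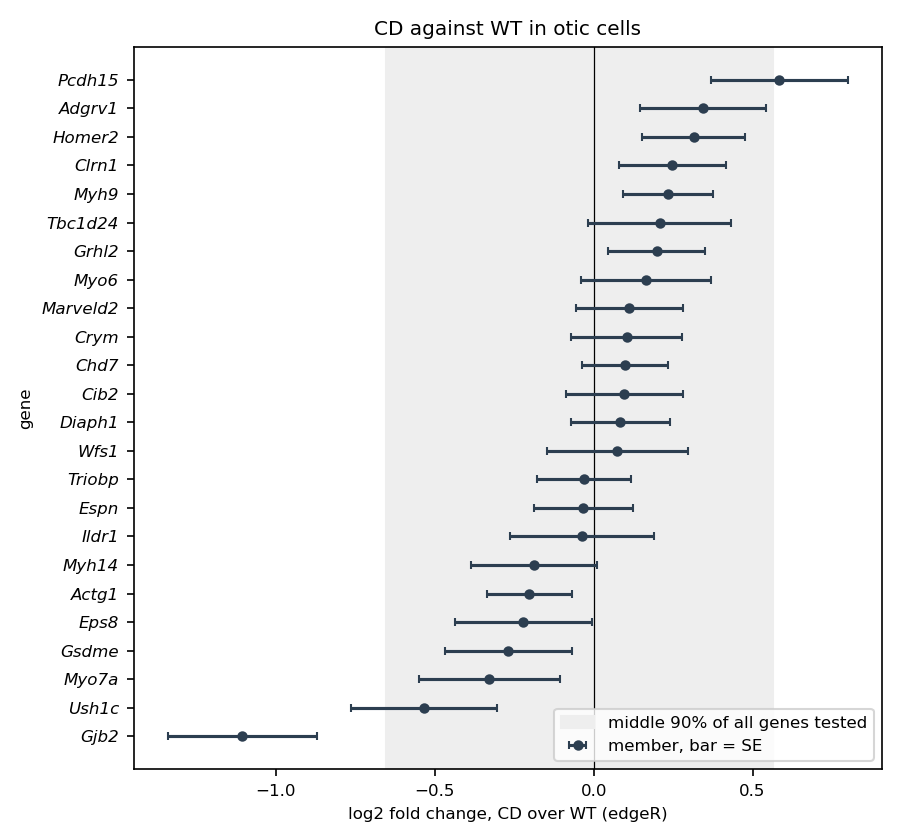
Log2 fold change of CD over WT in otic cells by edgeR (horizontal axis) for the 23 members expressed there and Gjb2, with bars of 1 SE. The grey band holds the middle 90% of all genes tested. Of the members shown, Gjb2, at -1.11, and Pcdh15, at 0.58, lie outside it.

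Whether the CD difference in otic cells differs from that in another class was tested as an interaction. For otic cells against mesenchyme, neurons and crest, edgeR called 0 of 33 members in each case, with 2, 1 and 2 members at an unadjusted p under 0.05. Of all genes, 1.63%, 2.86% and 3.46% had such a p, and 0% were called higher and 0% lower. The smallest adjusted p among members was that of Myh9 against neurons (log2 0.69 ± 0.13, edgeR adjusted p = 0.661). These interactions were fitted with edgeR alone. Of the 84 further deafness genes, 75 could be tested in otic cells and 1 fell in CD: Otogl, otogelin-like, a glycoprotein of the membranes over the sensory epithelia. It was at 1.84, 5.90 and 7.59 CPM (log2 difference -1.93 ± 0.28, adjusted p = 0.0486 by edgeR). Its call was lost in 5 alternatives, with the adjusted p at 0.245 when every gate was raised by 1 UMI and at 0.157 without doublets, while the log2 fold change stayed between -1.73 and -2.11.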

How the data were processed

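The deposited values are UMI counts per gene and cell barcode of 1 CD and 2 WT libraries of pooled otic vesicles, made with the Chromium 3' kit v3.1 per the labels' protocols. The authors counted reads with Cell Ranger 6.0 on build mm39, per the submitters' processing notes, and the file headers give 6.0.0. The annotation used, the filter on barcodes and the treatment of reads that match several genes are not given in the sources used here. Counts can include free RNA, which gives UMIs in cells that do not express a gene, and its amount was not estimated.

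The 44 members, the role groups, the marker lists and the tests were chosen with earlier results of these data known. Kept cells had 1000 genes or more and no more than 10% mitochondrial UMIs. Gates used raw UMIs (otic Epcam at least 1 and Fbxo2, Hmx2, Hmx3 and Pax2 at least 2 in sum; mesenchyme Prrx1 and Twist1, neurons Neurod1 and Stmn2, or crest Sox10 at least 2, each with no Epcam, and crest with at most 1 of Fbxo2 and Hmx2). Cells that passed more than 1 gate were left out (154, 69 and 303). Regional gates needed at least 2 UMIs (neurogenic, Otx), 3 (dorsal) or 4 (Sox2). Doublets marked by Scrublet in scanpy 1.11.5, with an expected share of 5%, were 3.28%, 2.83% and 3.87% of cells and stayed in, apart from an alternative without them.

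Counts were summed per library and class. Sums were tested with the quasi-likelihood test of edgeR 4.0.16 in R 4.3.3 (TMM factors, filterByExpr), with Benjamini-Hochberg adjustment over all genes tested and a threshold of 0.05. The SE is the absolute log2 fold change over the square root of F. Class comparisons used all 12 sums with the library as a block (6 residual degrees of freedom), and regional comparisons 6 sums with the same block (2). CD against WT used 3 sums. In the class and regional fits the pairing comes from the design, since the classes of a library share its cells' pool. The statistical scripts were tested on simulated counts with known changes. DESeq2 1.42.0, RLE factors, no gene filter, no block, each library left out, stricter cells, raised gates, cells in 2 gates kept, otic cells free of other markers, and thinning to 5000 UMIs were alternatives. Another, without cells with endothelial, blood, macrophage or neural tube markers, was chosen after seeing the data. Members expressed in some class, or past the threshold in a comparison, are described, and the rest by counts. P-values measure only the spread between these libraries, which may be technical, and floors cover counting error only.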

Additional observations from a re-analysis of the deposited data

How the results depend on the processing

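The results named for single members, 194 in all, kept direction and side of the threshold in every alternative in 106 cases, lost the call in at least 1 alternative in 86, and 5 reversed. Changing the normalisation factors to RLE cost 0 calls, raised gates 2, leaving out cells with endothelial, blood or neural tube markers 2 (an alternative chosen after seeing the data), no gene filter 4, stricter cells 5, leaving out doublets 6, DESeq2 23, leaving out a library between 21 and 29, no replicate block 44 and thinning to 5000 UMIs 63. Thinning lowers the counts and so the number of genes that can be called. The 5 reversals, all without a call, came with thinning: log2 1.36 for Marveld2 in crest against neurons, -0.17 for Clrn1 in neurogenic, -0.012 for Triobp in dorsal, and -0.046 for Espn and 0.18 for Cib2 in Sox2-high otic cells.

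Counts of members called moved by more than 1.5 times as follows, and the cause was not tested. After thinning, otic cells had 8 members higher than crest, crest 6 higher than mesenchyme and 7 lower than neurons, beside 9.06%, 9.39% and 15.6% of all genes. Without cells carrying other markers, crest had 5 higher than mesenchyme, and with a library left out between 3 and 5. Without the replicate block, the members higher and lower were 4 and 2 in neurogenic, 6 and 3 in Otx, 1 and 4 in dorsal and 3 and 1 in Sox2-high cells, where all genes called came to 7.34% and 3.1%, 3.54% and 3.98%, 5.32% and 2.88%, and 1.83% and 2.79% in the same order. After thinning they were 2 and 0 in neurogenic, 3 and 1 in Otx, 1 and 2 in dorsal and 1 and 0 in Sox2-high cells by edgeR, with 5 members in neurogenic and 6 in Sox2-high cells at an unadjusted p under 0.05 in either direction. All genes called after thinning came to 2.12% and 1.34%, 2.11% and 2.39%, 6.51% and 4.84%, and 1.52% and 1.36%. DESeq2 called 3 members lower in neurogenic, 2 higher in dorsal and 2 lower in Sox2-high cells. With a library left out, members lower numbered between 3 and 5 in neurogenic, between 3 and 7 in Otx and between 2 and 5 in Sox2-high cells, and members higher in dorsal cells between 4 and 7. Without the gene filter, 1 member (Gjb2) was called lower in CD otic cells by edgeR.

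No paired analysis was possible because CD and WT share only the replicate number 1, and without a WT replicate the comparison is 1 library against 1, which gives a fold with no test. In the class fits the block changed no count of members by more than 1.5 times. Depth limits the near-zero genes and the crest class most.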
